A study of Mus musculus with 10 samples.

Results

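The 7 genes described here, *Tubb1*, *Pf4*, *Ppbp*, *Itga2b*, *Gp9*, *Gp5* and *Gp6*, encode proteins that mark megakaryocytes and platelets. They were chosen by name, with their mean levels in both genotypes already known, from the 23195 genes of the deposited comparison, 16973 of them protein-coding. All 7 were found, and 6 passed the filter on low values (a mean normalized count of at least 10 over both genotypes), with *Gp6* just below it at 9.94.

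The samples were hearts dissected at embryonic day 13.5 (E13.5) from male embryos labelled C57BL6/J. Of these, 5 were wild type and 5 were homozygous for the *Nos1ap* tm1d allele, a constitutive null made from the floxed tm1c allele with CMV-Cre, which lacks exon 4, *lacZ* and *neo*. Exon 4 is thus absent from every tissue, not only from heart muscle. The allele was kept by backcrossing to C57BL/6J, and the labels name no litters. *Nos1ap* encodes an adaptor of neuronal nitric oxide synthase. PolyA RNA of each whole heart was sequenced as 1 stranded library, so blood and vessels were sampled along with muscle.

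Megakaryocytes are the large blood-forming cells that shed platelets, and in the mid-gestation mouse embryo they are found in the yolk sac and the fetal liver, while platelets circulate and pass through the heart. Platelets have no nucleus and keep RNA from the megakaryocyte. Their surface carries receptors for von Willebrand factor, collagen and fibrinogen, their α-granules hold chemokines, and a ring of microtubules keeps them flat. The transcription factors GATA1, FLI1, RUNX1 and NF-E2 are known to control these genes.

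The values are normalized counts, that is, read counts divided by the size factor of the library. The deposited values are means of each genotype, and the counts of the single libraries were recovered from them. For all 7 genes only 1 set of 5 counts per genotype was possible. Libraries are numbered 1 to 5 within a genotype from the largest to the smallest size factor, which is not the replicate number in the labels. Size factors ran from 0.918 to 1.15, and the libraries held an estimated 11328000 to 14023000 counted read pairs. The level of *Nos1ap* itself was 144 ± 14.4 in the wild-type libraries and 39.9 ± 5.2 in the null libraries (SD, n = 5 each), with no overlap (exact two-sided permutation test, p = 0.00794, the smallest that 5 against 5 libraries can give).

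The 7 genes lie on 6 chromosomes (GRCm38, GENCODE M21). *Tubb1* is at chr2:174450695-174457882 and *Itga2b* at chr11:102453297-102470122. *Gp9* is at chr6:87778072-87779768, *Gp5* at chr16:30307685-30310779 and *Gp6* at chr7:4363965-4397744. *Ppbp* (chr5:90768518-90770063) and *Pf4* (chr5:90772435-90773383) are neighbours on the same strand, with 2371 bases between them. No protein-coding or antisense gene overlapped any of the 7. *Itga2b* holds a small misc_RNA gene and *Gp6* holds 2 miRNA genes, all on the same strand.

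Because the 7 genes moved together across libraries, as described below, the 250 bases before each start site were searched for short core motifs of factors of this lineage. The promoters were from RefSeq (GRCm38.p6), where all 7 genes were matched. Both strands were searched, and no matches overlapped. The ETS factor core AGGAAG (reverse complement CTTCCT) was in 5 of 7 promoters, against 29.6% of 32536 distinct promoters of all genes. The GATA factor core GATAA (reverse complement TTATC) was in 3 of 7, those of *Gp9*, *Gp5* and *Gp6*, against 22.5%. The RUNX core TGTGGT was in that of *Gp9* alone, against 14%, and the AP-1 and NF-E2 core TGAGTCA was in 0 of 7, against 4.45%. The TATA box TATAAA was in that of *Ppbp* alone, against 12.3%. Motifs this short match often by their length, and a match is not a bound site. The last 120 bases before the RefSeq start are shown for 4 genes, 5′ to 3′ on the strand of the gene, with the ETS and GATA cores in capitals. For *Tubb1* that start lies upstream of the GENCODE start given above. *Gp9* and *Gp5* were chosen because they hold both cores, and *Tubb1* and *Pf4* because they hold the ETS core only.
*Gp9*, chr6:87777950-87778069 (+ strand): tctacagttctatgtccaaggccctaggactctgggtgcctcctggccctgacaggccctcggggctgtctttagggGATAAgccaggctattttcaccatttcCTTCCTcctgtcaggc
*Gp5*, chr16:30310782-30310901 (- strand): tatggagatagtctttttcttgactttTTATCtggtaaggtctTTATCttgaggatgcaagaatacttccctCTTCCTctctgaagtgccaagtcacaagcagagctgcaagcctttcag
*Tubb1*, chr2:174450475-174450594 (+ strand): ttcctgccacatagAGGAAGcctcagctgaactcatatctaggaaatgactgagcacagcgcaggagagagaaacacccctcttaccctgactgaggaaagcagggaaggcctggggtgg
*Pf4*, chr5:90772315-90772434 (+ strand): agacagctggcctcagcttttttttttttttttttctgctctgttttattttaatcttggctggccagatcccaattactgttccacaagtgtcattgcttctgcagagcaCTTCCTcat

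The mean of each of the 7 genes was higher in *Nos1ap* null than in wild-type hearts, from 1.25-fold for *Ppbp* to 1.85-fold for *Tubb1*, with a median of 1.27-fold. These means are the values that chose the genes, so they are given as a description. In none of the 7 were the ranges of the 5 wild-type and 5 null libraries apart. Over all 10241 protein-coding genes tested, ranges lay apart with null higher in 0.43% and with null lower in 0.361%. With limma and Benjamini-Hochberg adjustment over those genes, 0 of the 6 members tested were called at an adjusted p under 0.05, against 0.0293% of all genes tested (3 genes, *Mt2*, *Nos1ap* and *Gm7694*). Nothing is read from these shares for genes chosen on this contrast.

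**Figure D1:**
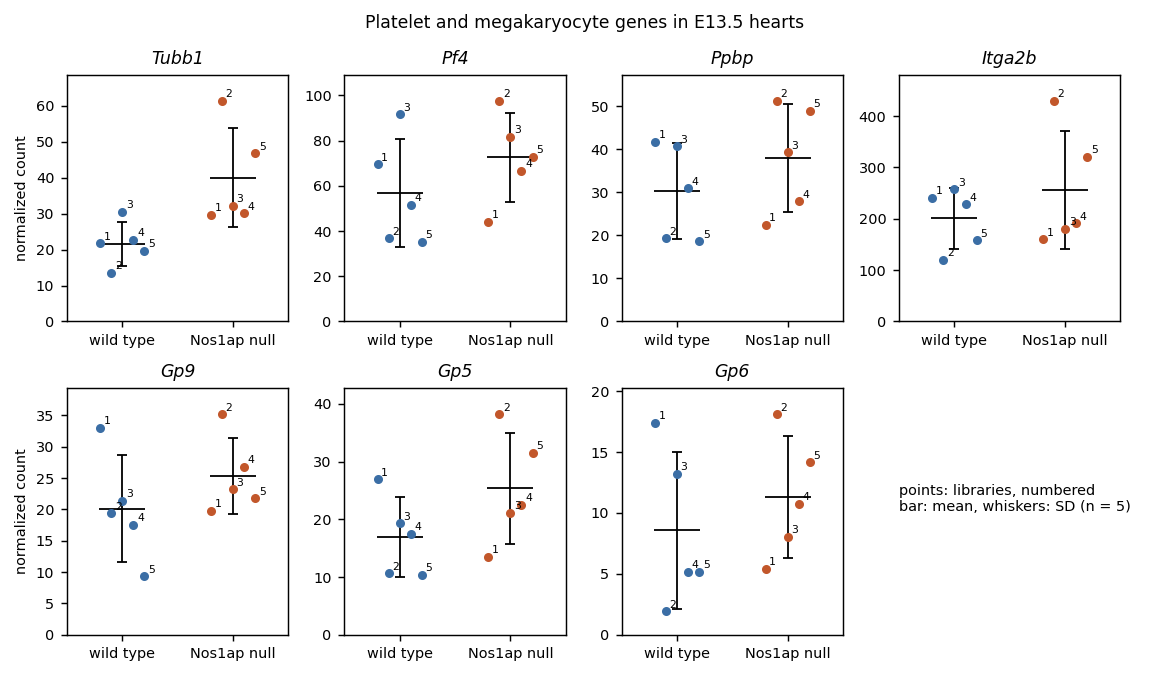
Normalized count of each gene (vertical axes, from 0) in the 5 wild-type and 5 *Nos1ap* null hearts. Points are libraries with their number, bars are means and whiskers are SD. Null library 2 is the highest of all 10 libraries in every panel and null library 1 the lowest of the null libraries.

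*Tubb1* encodes β1-tubulin, which forms the microtubule ring of platelets. Its normalized counts in wild-type libraries 1 to 5 were 21.8, 13.6, 30.5, 22.7 and 19.7. In null libraries 1 to 5 they were 29.7, 61.3, 32.3, 30.1 and 46.8. The groups met at their edges only: wild-type library 3 was above null libraries 1 and 4, and the other 4 wild-type libraries were below every null library. The means were 21.6 ± 6.12 and 40.0 ± 13.8 (SD, n = 5), 1.85-fold higher in null, and 1.60-fold without null library 2.

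Both chemokine genes of the α-granule showed broad overlap between genotypes. *Pf4*, which encodes platelet factor 4, had 69.6, 36.8, 91.6, 51.6 and 35.2 in wild-type libraries 1 to 5. In null libraries 1 to 5 it had 44.1, 97.5, 81.7, 66.6 and 73.0. Wild-type library 3 was thus next to the top of all 10, and null library 1 was below 3 wild-type libraries. The means were 57.0 ± 23.8 and 72.6 ± 19.7, 1.27-fold higher in null.

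*Ppbp* encodes pro-platelet basic protein, from which the neutrophil attractant CXCL7 is cut. It had 41.8, 19.4, 40.7, 31 and 18.6 in wild-type libraries 1 to 5. In null libraries 1 to 5 it had 22.5, 51.3, 39.3, 27.9 and 49.0. As for *Pf4*, wild-type libraries 2 and 5 were the lowest of all 10 and null library 1 came next. The means were 30.3 ± 11.1 and 38.0 ± 12.7, 1.25-fold higher in null.

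*Itga2b* encodes integrin αIIb (CD41), which pairs with integrin β3 in the fibrinogen receptor and also marks early blood progenitors of the embryo. It had the most reads of the 7 genes. Wild-type libraries 1 to 5 had 241, 120, 258, 228 and 158 normalized counts. Null libraries 1 to 5 had 160, 429, 180, 191 and 320. Null libraries 2 and 5 were above all wild-type libraries, while null libraries 1, 3 and 4 were below 3 of the 5 wild-type ones. The means were 201 ± 59.0 and 256 ± 115, but the medians were in the opposite order, 228 in wild type and 191 in null. The fold of 1.27 came down to 1.06 without null library 2.

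*Gp9* and *Gp5* encode subunits of the glycoprotein Ib-IX-V complex, the platelet receptor for von Willebrand factor. *Gp9* had 33.1, 19.4, 21.4, 17.5 and 9.31 in wild-type libraries 1 to 5. In null libraries 1 to 5 it had 19.8, 35.2, 23.2, 26.9 and 21.8. All null libraries were thus within or just above the wild-type range. The means were 20.1 ± 8.56 and 25.4 ± 6.07, 1.26-fold higher in null.

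*Gp5* had 27.0, 10.7, 19.3, 17.5 and 10.3 in wild-type libraries 1 to 5. In null libraries 1 to 5 it had 13.5, 38.2, 21.2, 22.6 and 31.6. Null libraries 2 and 5 were again above all wild-type libraries, and null library 1 was below 3 of them. The means were 17.0 ± 6.89 and 25.4 ± 9.62, 1.5-fold higher in null and 1.31-fold without null library 2.

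*Gp6*, the collagen receptor glycoprotein VI, was the least abundant, with 2 to 20 reads a library. Wild-type libraries 1 to 5 had 17.4, 1.94, 13.2, 5.16 and 5.17 normalized counts. Null libraries 1 to 5 had 5.4, 18.1, 8.07, 10.7 and 14.2. The highest wild-type and the highest null library were nearly level, and the wild-type libraries alone spanned almost the whole range. The means were 8.58 ± 6.46 and 11.3 ± 5.0, 1.32-fold higher in null.

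Per kilobase of exon the order of the genes was the same in both genotypes. *Pf4* was highest, above the next gene in 10 of 10 libraries, with 79.0 ± 33.1 normalized counts per kb in wild type and 101 ± 27.3 in null (SD, n = 5). *Itga2b* followed with 36.9 ± 10.8 and 47.0 ± 21.2, then *Ppbp* with 28 ± 10.3 and 35.1 ± 11.7. *Gp9* had 22.9 ± 9.72 and 28.8 ± 6.89 per kb, and *Tubb1* 15.4 ± 4.35 and 28.5 ± 9.85. The neighbours *Itga2b*, *Ppbp*, *Gp9* and *Tubb1* overlapped in range in both genotypes, so their order is not clear. *Gp5* had 7.72 ± 3.14 and 11.6 ± 4.38 per kb, below *Tubb1* in 10 of 10 libraries although their wild-type ranges overlapped. *Gp6*, at 1.45 ± 1.10 and 1.91 ± 0.847, was below it in 10 of 10 libraries. Among the genes tested, *Pf4* stood at percentile 72.1 of levels per kb, *Itga2b* at 44.9 and *Gp5* at 14.9.

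The same libraries were high or low for nearly all of the 7 genes. Null library 2 was the highest of all 10 libraries for 7 of 7 genes, and it was the highest for 13.4% of all genes tested. Since the 7 genes were chosen with their higher null means known, nothing is read from this share. Null library 1 was the lowest null library for 7 of 7. Among wild-type hearts, library 1 was highest for 4 genes and library 3 for the other 3, and library 5 was lowest for 4 and library 2 for the other 3. The 7 genes summed to 452, 222, 474, 374 and 257 normalized counts in wild-type libraries 1 to 5, and to 295, 731, 386, 376 and 557 in null libraries 1 to 5. The sum of null library 2 was above that of every other heart, and that of null library 1 was below 3 wild-type hearts.

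**Figure D2:**
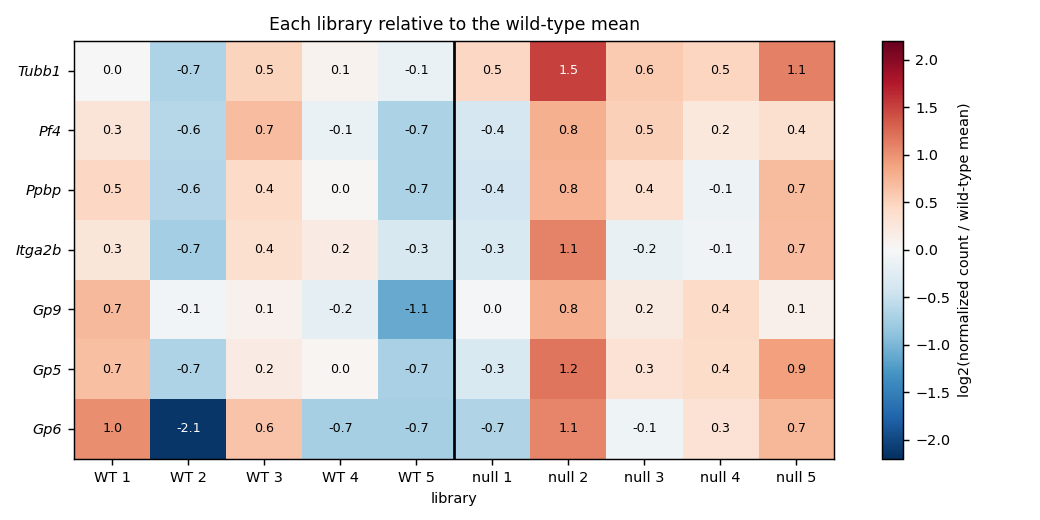
Log2 of the normalized count over the wild-type mean for each gene (rows) in each library (columns), red above and blue below the wild-type mean. Rows follow similar patterns across the columns: wild-type libraries 2 and 5 are at or below the wild-type mean for all 7 genes, and null library 2 is above it for all 7.

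Whether the genes moved together among hearts of the same genotype is a separate question from the difference between genotypes. It is not fully independent of the choice of genes, which was made with the genotype means known. Null library 2 raised the null mean of each gene, and it also enters each correlation. Each gene's log2(normalized count + 1) was centred on its genotype mean, and the 21 pairs were correlated over the 10 libraries with an exact two-sided permutation test within genotype. All 21 Pearson's r were positive, from 0.327 to 0.955 with a median of 0.808. After Benjamini-Hochberg adjustment over the 21 pairs, 16 passed at 0.05. With Spearman's rho 18 passed, and the median rho was 0.758. Without null library 2 the median r was 0.791 and 9 pairs passed, and without null library 1 these were 0.785 and 10.

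The closest pair was *Tubb1* and *Itga2b*, the microtubule and the integrin gene, with r = 0.955 (exact permutation p = 0.000486, adjusted p = 0.00583) and rho = 0.964 (exact p = 0.000764). Without the 2 libraries farthest from the median of *Tubb1*, wild-type library 2 and null library 2, r was 0.910. *Ppbp* and *Gp5*, a granule and a surface gene, followed with r = 0.938 (exact p = 0.000625, adjusted p = 0.00583) and rho = 0.927 (exact p = 0.000556), and r was 0.888 without the 2 farthest libraries. The chemokine neighbours *Pf4* and *Ppbp* had r = 0.917 (exact p = 0.00111, adjusted p = 0.00583) and rho = 0.952 (exact p = 0.000625), and r was 0.910 without the 2 farthest.

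*Gp9* was the member least like the others, with a median r of 0.621 over its 6 pairs, while the medians of the other 6 genes ran from 0.771 to 0.862. The 5 pairs that did not pass by Pearson's r all held *Gp9*, and by Spearman's rho 3 did not pass, also all with *Gp9*. *Gp9* with *Pf4* had r = 0.683 (exact permutation p = 0.0524, adjusted p = 0.0611) and rho = 0.721 (exact p = 0.0303, adjusted p = 0.0354), and r was 0.746 without the 2 farthest libraries. With *Ppbp* it had r = 0.656 (exact p = 0.0474, adjusted p = 0.0585) and rho = 0.745 (exact p = 0.0224, adjusted p = 0.0328), and r was 0.406 without the 2 farthest, so both pairs passed by rho only. With *Tubb1* it had r = 0.327 (exact permutation p = 0.377, adjusted p = 0.377) and rho = 0.370 (exact p = 0.312), and r was 0.238 without the 2 farthest libraries. With *Itga2b* r was 0.496 (exact p = 0.135, adjusted p = 0.147) and rho 0.406 (exact p = 0.262), and r was 0.480 without the 2 farthest. *Gp5*, its partner in the receptor complex, was the gene with which *Gp9* passed by both measures, at r = 0.745 (exact p = 0.0161, adjusted p = 0.0226) and rho = 0.745 (exact p = 0.0234, adjusted p = 0.0328), and r was 0.620 without the 2 farthest libraries. In these values *Gp9* was high in wild-type library 1 and low in wild-type library 5, but near its wild-type mean in library 2, where *Tubb1*, *Itga2b* and *Gp6* were lowest. Whether the r of *Gp9* differs from those of the other genes was not tested.

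**Figure D3:**
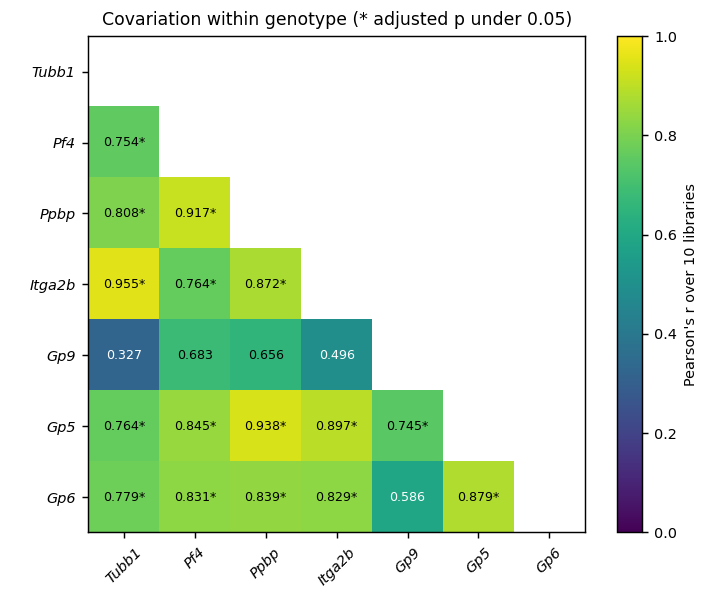
Pearson's r over 10 libraries for each pair of the 7 genes, after centring log2(normalized count + 1) on the genotype mean, with a star where the exact permutation p adjusted over 21 pairs is under 0.05. The row and column of *Gp9* hold the lowest values, from 0.327 to 0.745, and the rest lie between 0.754 and 0.955.

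The spread between hearts of a genotype was larger than counting error for all 7 genes. The variance within genotype was 2.64 times that of counting for *Gp9*, 3.27 times for *Tubb1*, 7.79 times for *Pf4* and 35.1 times for *Itga2b*. Over the 5186 protein-coding genes with means in the same span the median was 1.44, and *Pf4* and *Itga2b* were above the 90th percentile, 4.68. The ratio grows with the level of a gene, so that it does not rank the 7. The mean of *Itga2b* is the upper end of that span, so *Itga2b* was set beside less abundant genes. The highest of the 10 libraries was 2.75 times the lowest for *Ppbp*, 2.77 for *Pf4*, 3.58 for *Itga2b*, 3.69 for *Gp5*, 3.78 for *Gp9*, 4.53 for *Tubb1* and 9.35 for *Gp6*, whose lowest library held 2 reads. In whole hearts, fewer cells of a type and less RNA per cell cannot be told apart.

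Of 44 other genes of megakaryocytes and platelets, listed by role with earlier results of these data known, 38 were tested and 0 passed at an adjusted p under 0.05 with limma (6, or 15.8%, had an unadjusted p under 0.05, against 3.58% of all genes tested), and 0 with voom weights (3 unadjusted). Of the 6, *F2rl2* and *F5* had wild-type means under 10 and passed the filter on low values only through their null means. The smallest adjusted p was 0.998. The log2 difference (null minus wild type) was above 0 for 32 of the 38, against 47.8% of all genes tested, with a median of 0.13 beside 0.00 over all genes tested. Without null library 2 the median of the list was 0.10. Null library 2 was the highest of all 10 libraries for 19 of the 38, against 13.4% of all genes tested. The 38 genes were read in the same 10 libraries, so their directions are not separate results. Several of these genes are also made by other cells, *Vwf* and *Fli1* by endothelium, *Syk* and *Fcer1g* by macrophages, and *Gata1* and *Nfe2* by erythroid cells.

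None of the 8 surface receptor genes passed, with a median log2 difference of 0.12, which was 0.04 without null library 2. *Itgb3*, which encodes the integrin partner of αIIb, had a mean of 260 ± 24.1 in wild type and 310 ± 56.1 in null, a log2 difference of 0.24 ± 0.106 (SE). *Gp1ba*, the von Willebrand factor binding subunit of the complex of *Gp9* and *Gp5*, had 38.6 ± 6.98 and 51.3 ± 18.6, a log2 difference of 0.34 ± 0.215. *Fcer1g*, which encodes the signalling chain of glycoprotein VI, had 49.8 ± 12.7 and 48.1 ± 10.4, a log2 difference of −0.04 ± 0.184.

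None of the 6 agonist receptor genes tested passed, with a median of 0.23, which was 0.10 without null library 2. *P2ry1*, an ADP receptor, had 106 ± 9.73 in wild type and 94.9 ± 8.61 in null, and *Tbxa2r*, the thromboxane receptor, had 101 ± 13.6 and 90.5 ± 8.67. *P2rx1*, the ATP-gated channel of platelets, had 24.3 ± 4.54 and 30.1 ± 14.5. The largest log2 difference of the role was that of *F2rl2*, the thrombin receptor PAR3, at 0.78 ± 0.334 (SE), from 7.06 ± 1.68 to 13.7 ± 7.26. With a wild-type mean under 10, *F2rl2* passed the filter on low values only through its null mean. It was 1.94-fold higher in null and 1.5-fold without null library 2.

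None of the 6 granule and secreted protein genes tested passed, with a median of 0.06, which was 0.03 without null library 2. *Vwf*, which endothelium also makes, had 770 ± 69.5 in wild type and 848 ± 69.9 in null. *Nbeal2*, needed to form α-granules, had 261 ± 23.8 and 269 ± 34.2, and *F13a1*, the clot-linking enzyme factor XIII A, had 96.4 ± 18.6 and 90.5 ± 29.3. The largest difference was that of *F5*, coagulation factor V, at 0.71 ± 0.322 (SE) on the log2 scale, from 9.97 ± 3.09 to 17.9 ± 8.47. With a wild-type mean just under 10, *F5* also passed the filter on low values only through its null mean.

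None of the 12 signalling and enzyme genes tested passed, with a median of 0.11, which was 0.07 without null library 2. *Syk*, the kinase used by glycoprotein VI, had 442 ± 24.1 and 474 ± 39.6, *Ptgs1*, cyclooxygenase 1, had 303 ± 19.5 and 325 ± 11.8, and *Plcg2*, phospholipase Cγ2, had 243 ± 12.6 and 250 ± 25.7. *Alox12*, the 12-lipoxygenase of platelets, had the largest log2 difference, 0.47 ± 0.183 (SE), from 44.9 ± 7.70 to 64.1 ± 19.0.

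None of the 6 transcription factor genes tested passed, with a median of 0.37, which was 0.14 without null library 2. *Zfpm1* (FOG1, the partner of GATA1) and *Meis1* were too abundant for counts to be recovered, and the authors' means were 1498.4 and 1550.6 for *Zfpm1* and 1018.6 and 1005.5 for *Meis1* in wild type and null. *Etv6* had 880 ± 38.6 and 898 ± 18.9. *Gata1* had the largest log2 difference, 0.93 ± 0.355 (SE), from 14.5 ± 4.55 to 32.5 ± 23.3, and was 2.24-fold higher in null and 1.55-fold without null library 2.

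**Figure D4:**
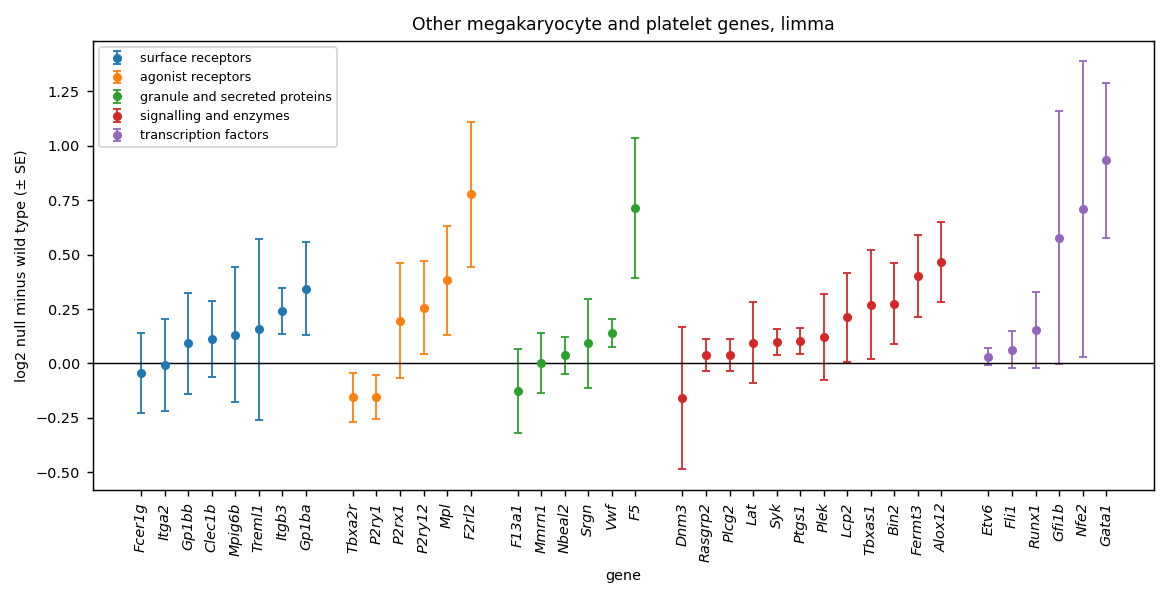
Log2 difference between *Nos1ap* null and wild type (limma, on log2(normalized count + 1)) for 38 other megakaryocyte and platelet genes, coloured by role. Points are estimates and whiskers SE, none passed at an adjusted p under 0.05, and the widest whiskers are those of *Nfe2* and *Gfi1b*, named after their values were seen.

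Within genotypes, many of these genes followed the 7. Their r with the mean centred and standardised value of the 7 genes, over 10 libraries, had a median of 0.60, beside 0.04 over the 10235 other genes tested, and was over 0.8 for 9 of 38, beside 2.04% of those genes. Without null library 2 the median was 0.51 and 6 of 38 were over 0.8, beside 1.71%. By role the median was 0.76 for surface receptors, 0.56 for signalling and enzymes, 0.47 for granule proteins, 0.39 for agonist receptors and 0.30 for transcription factors. Without null library 2 these medians were 0.668, 0.385, 0.405, 0.219 and 0.17 in the same order of roles. Granule proteins then came above signalling and enzymes. All these values share the same hearts. The values of single genes that follow are over all 10 libraries, null library 2 included. *Alox12* reached 0.870, *Gata1* 0.808 and *P2rx1* 0.809, while *Etv6* had −0.810. The transcription factors thus did not move as 1 group: *Nfe2* had 0.873 and *Gfi1b* 0.735, but *Runx1* had −0.141 and *Fli1* −0.676.

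The 10 tested genes most like the 7 by this r were *Ddrgk1*, *Dtx2*, *Hes6*, *Cenpm*, *Krt7*, *Vps13b*, *Dact2*, *Rhod*, *Clvs1* and *Rasl10b*, from 0.939 to 0.914, and none is in the list above. The normalized counts of *Ddrgk1* were 272 ± 18.8 in wild type and 288 ± 27.1 in null, and *Krt7* had 288 ± 45.1 and 292 ± 25.4. These are the highest of 10235 values of r over 10 libraries each.

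Markers of other cells were read in the same libraries. For erythroid cells, the authors' mean was higher in null for 12 of 13 genes, from *Hbb-y*, an embryonic globin (69480.1 against 115020.2), down to *Hemgn* (11.7 against 33.1), with *Hbb-bs* the exception. Counts were recovered for *Rhag*, *Hemgn* and *Klf1*, which summed to 71.3, 34.9, 64.1, 91.9 and 33.1 in wild-type libraries 1 to 5 and to 49.5, 395, 23.2, 68.7 and 104 in null libraries 1 to 5. Their sum was 2.17-fold higher in null by the mean, but 1.04-fold without null library 2. Without that library *Rhag* had a null mean of 25.8 against 27.4 in wild type, *Klf1* 19.3 against 19.9 and *Hemgn* 16.1 against 11.7. Whether the other 10 means also rest on it could not be read, since their counts were not recovered in both genotypes. Null library 2, the highest heart for all 7 platelet genes, was also far above the other hearts here. The orders were not the same throughout: wild-type library 4 was the highest wild-type heart for erythroid genes and in the middle for the platelet genes, and null library 3, lowest of all for erythroid genes, was above 3 wild-type hearts for the platelet genes. The part of blood content in the values of the 7 genes was not tested.

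**Figure D5:**
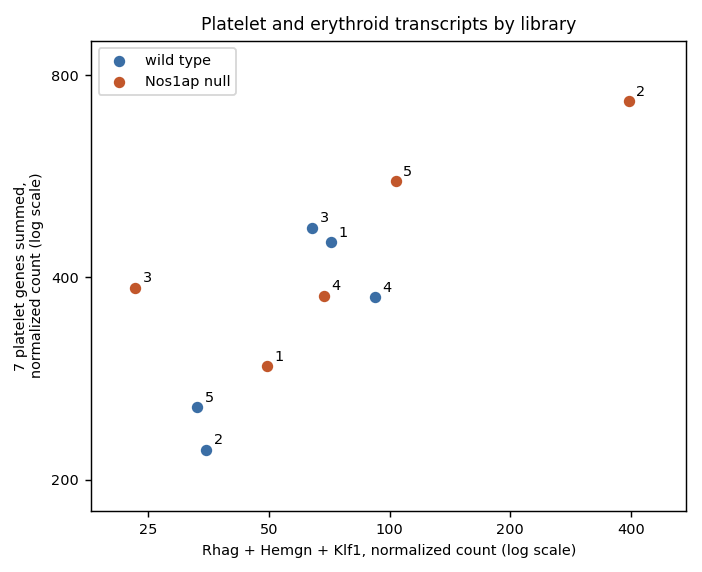
Summed normalized count of the 7 platelet genes (vertical) against that of *Rhag*, *Hemgn* and *Klf1* (horizontal), both on log scales, 1 point a library with its number. Null library 2 is at the top right, at 395 and 731, and wild-type library 4 has an erythroid sum of 91.9 with a platelet sum of 374.

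The markers of 6 other cell types were read in the same way, with genes ranked by the mean over both genotypes. The 8 macrophage genes summed to 946 to 1093.2 in wild type and 925 to 1074.9 in null, with *Csf1r* highest (390 and 376) and *Fcgr1* lowest (20.1 and 18.4), and 2 of 8 had a higher mean in null. The 6 granulocyte genes summed to 17.6 to 56.6 and 4.02 to 20.7, with 0 of 6 higher in null, from *Mpo* (9.35 and 2.73) down to *Elane*, which was at 0.758 and listed at 0. Of the endothelial genes, 4 of 6 had a higher mean in null, with *Cdh5* highest (3287.3 and 3366.1) and *Emcn* lowest (673 and 668). Of the cardiomyocyte genes, 5 of 7 had a higher mean in null, with *Myh7* highest (128162.2 and 129864.5) and *Nkx2-5* lowest (1687.7 and 1647.5), so the heart label held. The fetal liver genes summed to 20.4 to 88.1 and 19.1 to 42.5, with *Afp* highest (21.1 and 8.29) and *Fgb* lowest (0.194 and 0.202), and 2 of 5 had a higher mean in null. The 3 neuronal genes with recovered counts (*Stmn2*, *Tubb3* and *Prph*) stood apart in wild-type library 3, with a sum of 2066.3 against 88.7 to 146 in the other wild-type hearts and 71.4 to 143 in null, and all 4, *Nefm* included, had a lower mean in null. *Nefm*, without recovered counts, was the highest (311 and 17.9) and *Prph* the lowest (124 and 7.60). Without null library 2 alone, the 7 platelet genes were 1.06-fold to 1.60-fold higher in null, with a median of 1.145. Leaving out wild-type library 3 as well, a choice made after seeing the data, gave 1.14-fold to 1.79-fold, with a median of 1.29. Wild-type library 3 held the highest wild-type sum of the 7 genes, so leaving it out lowers the wild-type mean.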

How the data were processed

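After trimming with Trimmomatic 0.36, the authors mapped read pairs by STAR, called within RSEM 1.2.31, to GENCODE M10 transcripts on GRCm38, using the strand. With DESeq 1.24.0 the authors compared genes with summed counts over 1. The deposited signal values used here are normalized counts averaged over the 5 libraries of a genotype. The deposited fold changes, log2 fold changes and p-values of that comparison were not used. Since each mean is a sum of whole counts divided by size factors, which the means of genes with a single read reveal, the 5 counts were recovered by lattice search, for 98.6% of wild-type and 98.91% of null genes with a mean under 1000, and in simulated means 4445 of 5432 (wild type) and 4439 of 5391 (null) were recovered with 0 wrong. Samples were grouped by the genotype in their labels. Genotypes were compared with limma 3.58.1 (R 4.3.3; trend, robust) on log2(normalized count + 1) over protein-coding genes averaging at least 10, with counts recovered in both genotypes, also tested on simulated data. Folds are ratios of means. The members and lists were chosen with earlier results of these data known. Named list genes are the 3 most abundant and the gene with the largest difference of each role, and the highest and lowest of each marker list. Alternatives were another pseudocount, scaling, filters, voom weights and leaving out libraries. Exon lengths are from GENCODE M21. The number of embryos and the read depth limit the precision, and counting error alone is large for *Gp6*. *Ahsp* was not analysed here, and 2 other marker genes are not reported here. Protein sequences were not used here.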

Additional observations from a re-analysis of the deposited data

Results flagged for a closer look

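In the 64 groups of 5 libraries examined for a library far from the rest, 3 stood apart by Dixon's ratio, whose 95% critical value is 0.71 and which chance passes about 1 time in 20. Over 64 groups that rate gives about as many as were found. None of the 7 platelet genes stood apart in either genotype. *Nfe2*, which encodes the large subunit of the megakaryocyte and erythroid factor NF-E2, had 339.9 normalized counts in null library 2, and 113 in the next null library (ratio 0.772). It was included after its values were seen. The summed erythroid markers (*Rhag*, *Hemgn* and *Klf1*) reached 395.2 in null library 2, and 104 in the next null library (ratio 0.784). The summed neuronal markers reached 2066.3 in wild-type library 3, and 146 in the next wild-type library (ratio 0.971).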

How the results depend on the processing

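The number of genes called by limma between genotypes was 2 to 4 under 18 alternatives, beside 3, and was 3 to 4 when single libraries were left out. The other megakaryocyte and platelet genes called stayed at 0 under all 18. The median log2 ratio of the 7 genes, log2 of (null mean + 1) over (wild-type mean + 1), was 0.35, and was lowest at 0.19, when null library 2 was left out, and highest at 0.56, when wild-type library 1 was. Its sign and that of each of the 7 genes held under all 13 alternatives, and the lowest value of any gene was 0.08 for *Itga2b*. The genes were chosen with their higher null means known, so nothing is read from the sign. Each alternative compares means, and the medians of *Itga2b* were in the opposite order. Rescaling moved all ratios by 0.0015. The 16 correlated pairs became 9 to 18 when single libraries were left out, with 9 without null library 2 and 10 without null library 1, the other 8 giving 15 to 18. Leaving out wild-type library 3 and null library 2 together, chosen after seeing the data, left 0 pairs past an adjusted p of 0.05 by the exact permutation test, with 10 at an unadjusted p under 0.05, a smallest adjusted p of 0.051, a median r of 0.752 and fewer pairings (576) to permute. No paired analysis was possible because the deposited values carry no replicate numbers.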
